A study of Mus musculus with 6 samples.

Results

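The Ston2 locus is described here as the 31 ATAC-seq peaks, of 175929 in all, that the deposited table assigned to the gene Ston2 and placed within 100000 bp of its transcription start site (TSS). The table assigned no peak to Ston2 beyond that limit (0), and the farthest of the 31 lay 87910 bp from the TSS. ATAC-seq counts the places where a transposase can cut, so that a peak with more tags is DNA more open to the enzyme. The 6 libraries came from mouse acute myeloid leukaemia driven by AE9a, a truncated AML1/ETO fusion protein carried with GFP on a retrovirus. All 6 came from Usp18+/f UBCER-Cre leukaemia cells transplanted into C57BL/6 recipients, in which 1 Usp18 allele is floxed and the ubiquitin C promoter drives a Cre that acts only once tamoxifen is given. Usp18 encodes the protease that removes ISG15 from proteins and restrains type I interferon signalling. Sick mice received oil, which leaves Usp18+/f cells (replicates 1, 2 and 4), or tamoxifen, which gives Usp18+/Δ cells (replicates 1, 3 and 4). Splenic GFP+ Lin- c-Kit+ cells were collected by sorting 3 days after treatment began. Every tamoxifen library differed from every oil library in both the drug and the allele, so that these cannot be told apart here. The labels do not tie each library to its own mouse, and each SD and each n = 3 below is over libraries, whose spread may be partly technical. The locus was chosen by its tag counts in these same 6 libraries, oil against tamoxifen, so the values of its peaks are given as a description and carry no p-value.

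Ston2 encodes stonin 2, an adaptor of clathrin-mediated endocytosis related to the Drosophila protein stoned B. It binds the plasma membrane adaptor complex AP-2 and the scaffold proteins Eps15 and intersectin, and it sorts synaptotagmin into vesicles that are retrieved from the membrane of nerve terminals. Its best described role is therefore in neurons, and blood cells are not the tissue it is known for.

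The gene lies on the minus strand of chromosome 12, at chr12:91633009-91786436 (mm10, RefSeq), and is 153428 bp long. Of the 31 peaks, 14 lay inside the gene and 17 upstream of it. The table placed 7 of the inner peaks in intron 1, 3 in intron 3, 3 in intron 4 and 1 in exon 3. Of the 17 upstream peaks, 14 were intergenic and 3 lay in introns of the neighbouring gene Sel1l. RefSeq lists 12 transcript models of Ston2 and GENCODE M21 lists 7. No peak covered the start of the longest model, from which the table measured its distances, and the nearest peak was 2127 bp away from it. A peak at chr12:91779017-91779270, annotated as a CpG island, contained the start sites of 2 RefSeq models and 1 GENCODE model. A peak at chr12:91745849-91746187, in intron 1 of the longest model, also contained the start sites of 2 RefSeq models and 1 GENCODE model. No other Ston2 peak contained an annotated start site. The GENCODE model Ston2-204 starts at chr12:91788387, upstream of the RefSeq gene, and 176 bp from the upstream peak at chr12:91788563-91788767.

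The sequences of 6 peaks are shown because the comparison turns on them. They are the 3 called peaks with the most tags per 100 bp after tamoxifen, a peak deep inside the gene that the table assigned to the neighbour Gtf2a1, the CpG-island peak, and the upstream peak that held the most tags after oil. Each is read 5′ to 3′ from the plus strand of the GRCm38 (mm10) reference, opposite to the direction in which Ston2 is transcribed, and a peak wider than 300 bp is given by its central 300 bases. Capitals mark matches, on either strand, to the consensus motifs named further on.
Lead peak, intron 1, 40418 bp from the TSS, chr12:91745868-91746167: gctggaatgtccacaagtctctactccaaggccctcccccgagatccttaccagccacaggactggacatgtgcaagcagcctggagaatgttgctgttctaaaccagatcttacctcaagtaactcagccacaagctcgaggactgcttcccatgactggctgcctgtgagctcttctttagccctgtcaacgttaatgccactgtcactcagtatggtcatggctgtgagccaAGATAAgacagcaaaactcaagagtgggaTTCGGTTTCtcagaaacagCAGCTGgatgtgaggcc
Intron 1, 28266 bp from the TSS, chr12:91758067-91758274: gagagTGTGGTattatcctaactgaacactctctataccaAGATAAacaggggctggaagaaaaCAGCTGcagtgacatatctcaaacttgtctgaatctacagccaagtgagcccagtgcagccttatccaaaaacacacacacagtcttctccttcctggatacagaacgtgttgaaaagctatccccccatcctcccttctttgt
Intron 3, 50050 bp from the TSS, chr12:91736266-91736506: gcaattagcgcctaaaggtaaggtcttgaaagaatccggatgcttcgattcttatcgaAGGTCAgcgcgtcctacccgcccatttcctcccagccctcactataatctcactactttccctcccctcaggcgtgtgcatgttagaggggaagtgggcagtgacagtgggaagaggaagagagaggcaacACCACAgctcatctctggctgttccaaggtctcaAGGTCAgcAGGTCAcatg
Intron 4, assigned to Gtf2a1, chr12:91668545-91668841: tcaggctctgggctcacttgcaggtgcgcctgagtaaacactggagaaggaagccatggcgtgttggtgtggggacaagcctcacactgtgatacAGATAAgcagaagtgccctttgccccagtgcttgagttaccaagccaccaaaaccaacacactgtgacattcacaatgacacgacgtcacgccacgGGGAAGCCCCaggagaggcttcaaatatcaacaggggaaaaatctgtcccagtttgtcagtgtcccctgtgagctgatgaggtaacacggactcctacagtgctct
CpG island, 7293 bp from the TSS, chr12:91779017-91779270: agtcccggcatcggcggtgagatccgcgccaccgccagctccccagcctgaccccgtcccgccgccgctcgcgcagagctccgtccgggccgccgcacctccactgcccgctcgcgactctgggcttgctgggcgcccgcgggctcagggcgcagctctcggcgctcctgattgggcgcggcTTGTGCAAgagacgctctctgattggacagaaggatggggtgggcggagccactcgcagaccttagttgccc
Upstream, 12491 bp from the TSS, chr12:91798804-91799050: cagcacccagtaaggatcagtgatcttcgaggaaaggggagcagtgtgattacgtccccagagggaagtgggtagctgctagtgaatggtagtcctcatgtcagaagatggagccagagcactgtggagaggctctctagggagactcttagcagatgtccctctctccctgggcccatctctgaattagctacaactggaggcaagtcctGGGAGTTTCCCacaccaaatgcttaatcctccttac

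The peaks inside Ston2 held more tags after tamoxifen, and the peaks upstream of the gene did not. Summed over the 14 inner peaks, normalised tags (tags divided by each library's size factor) were 274, 301 and 326 in oil replicates 1, 2 and 4 and 869, 931 and 845 in tamoxifen replicates 1, 3 and 4. The lowest tamoxifen library thus lay far above the highest oil library, and the group means were 300.2 ± 26.3 and 882 ± 44.4 (SD, n = 3 each), a ratio of 2.94. As the libraries hold many cells each, a change in which cells were sorted and a change within each cell cannot be told apart. Summed over the 17 upstream peaks, the values were 1098, 1289 and 1238 after oil and 1142, 1052 and 1187 after tamoxifen. These groups overlapped, with means of 1208 ± 99.1 and 1127 ± 68.5 (SD, n = 3 each), a ratio of 0.933. The upstream peaks held most of the tags of the locus after oil, and all 31 peaks together therefore differed by a log2 ratio of only 0.41.

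**Figure D1:**
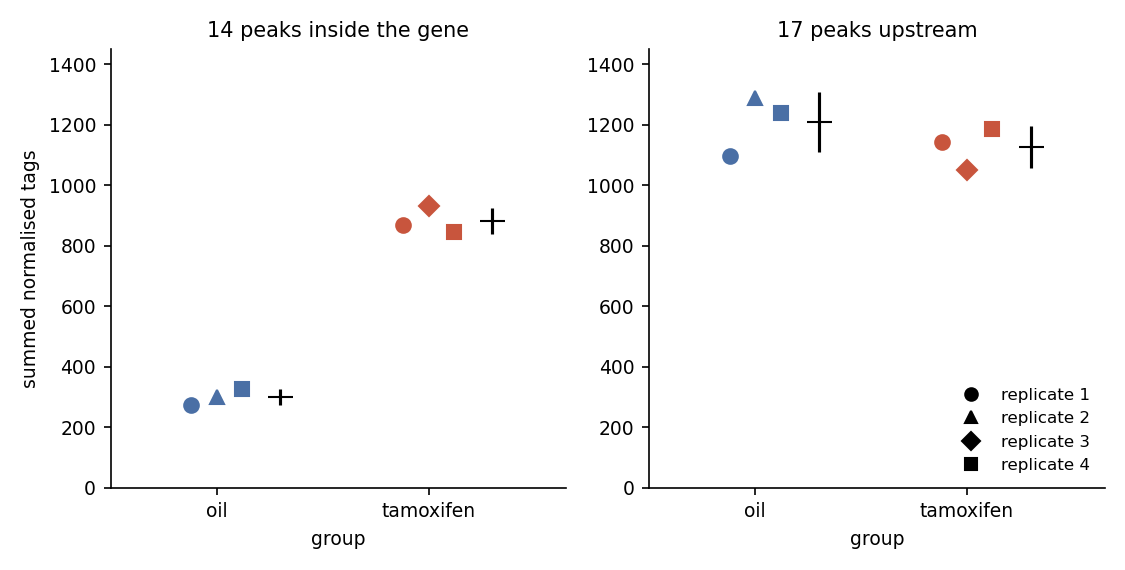
Summed normalised tags per library (vertical axis, from 0) of the 14 Ston2 peaks inside the gene (left) and the 17 upstream of it (right), by group, with the mean ± SD (n = 3) beside each group. Inside the gene the oil libraries lie at 274 to 326 and the tamoxifen libraries at 845 to 931, whereas upstream the groups overlap.

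In a DESeq2 fit of all 175929 peaks, a call required both an adjusted p under 0.05 and a fold change above 2. Of the 31 Ston2 peaks, 8 were called higher after tamoxifen, and 0 were called lower. Over all peaks, 0.588% were called higher and 0.0659% lower. All 8 lay inside the gene, 4 of 7 in intron 1, 3 of 3 in intron 3 and 1 of 3 in intron 4, and 0 of the 17 upstream peaks were called. With 1 library left out, 3 to 8 Ston2 peaks were called, fewest without tamoxifen replicate 1. The 3 tamoxifen values all exceeded the 3 oil values at 14 of the 31 peaks (over all peaks, 11.9%) and all lay below them at 3 (over all peaks, 10%). Of the 14, 11 lay inside the gene, and the 3 that were lower all lay upstream. The median log2 fold change was 1.52 over the inner peaks and 0.06 over the upstream peaks, against -0.0013 over all peaks. With no limit on the fold change, 8 peaks again had an adjusted p under 0.05 with more tags after tamoxifen and 0 with fewer (over all peaks, 1.22% and 0.167%). Since this contrast chose the locus, nothing is read from these counts against their background.

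**Figure D2:**
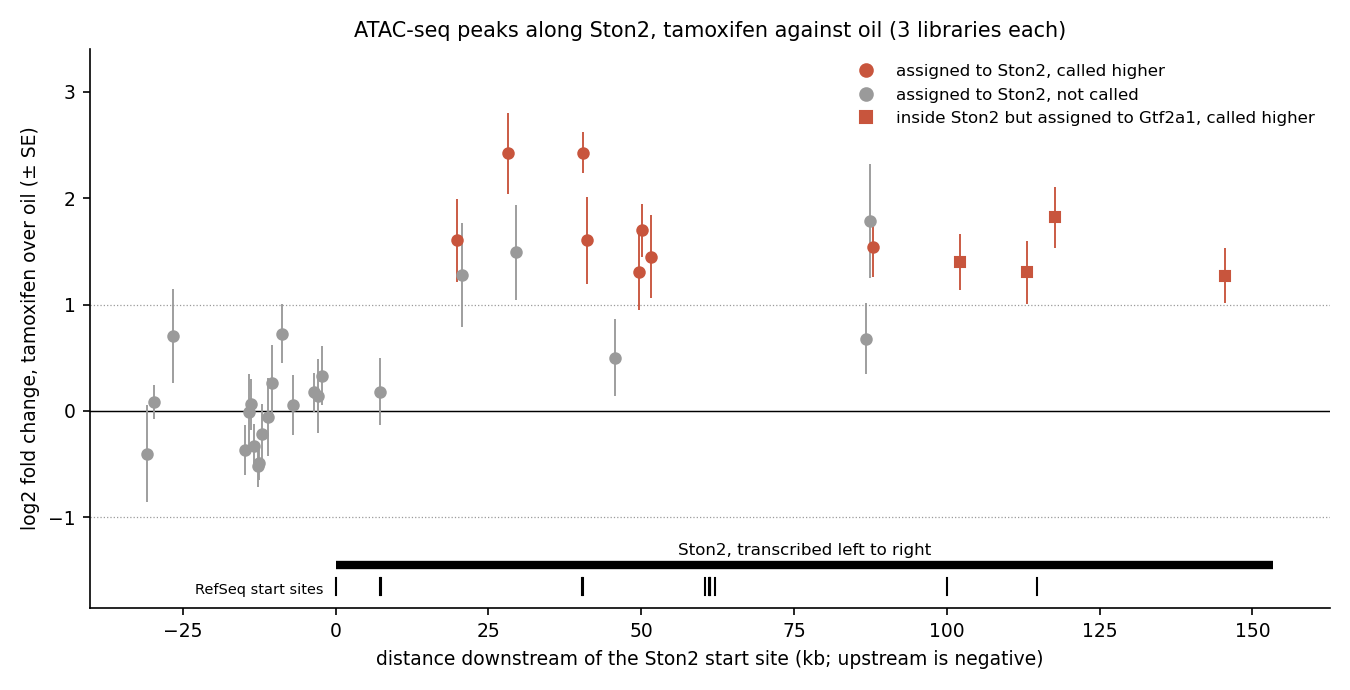
Log2 fold change (tamoxifen over oil, ± SE, vertical axis) of each Ston2 peak against its distance from the Ston2 TSS in kb (horizontal axis), with the gene drawn as a black bar and the RefSeq start sites as ticks; circles are the 31 peaks assigned to Ston2, squares the 4 peaks inside the gene assigned to Gtf2a1, and red marks called peaks. Peaks upstream of the gene and near its start lie around 0, and the called peaks begin 19.9 kb downstream of the TSS and run to 146 kb.

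The called Ston2 peak with the smallest adjusted p, termed the lead peak, was the one in intron 1 that contains the alternative start sites. It held 32.5, 40.5 and 58.2 normalised tags in oil replicates 1, 2 and 4, and 232, 244 and 245 in tamoxifen replicates 1, 3 and 4. The 3 tamoxifen libraries were close to each other and all stood well above the highest oil library. The means were 43.7 ± 13.2 and 240 ± 6.94 (SD, n = 3 each), a log2 fold change of 2.43 ± 0.20 (SE). It also took a larger share of the tags of the inner peaks, on average 14.4% ± 3.09 (SD, n = 3) in the oil libraries and 27.3% ± 1.47 (SD, n = 3) in the tamoxifen libraries.

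Levels of different peaks can be compared only per length. Per 100 bp, the lead peak held 12.9 ± 3.88 normalised tags after oil, the 14th highest level among the 31 peaks, and 70.9 ± 2.05 after tamoxifen, the 2nd highest (SD, n = 3 each). The highest level after tamoxifen was that of a peak in a Sel1l intron, 29765 bp upstream of the TSS, at 74.0 ± 6.27 per 100 bp, which did not differ from the lead peak beyond the spread between libraries. After oil the highest level was 86.1 ± 9.38 per 100 bp, at the upstream peak 12491 bp from the TSS.

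The second peak with a fold change over 5 lay in the same intron, 28266 bp from the TSS. It held 6.07, 13.2 and 10.8 normalised tags after oil and 62.3, 55.2 and 49.8 after tamoxifen, for means of 9.99 ± 3.61 and 55.8 ± 6.29 (SD, n = 3 each) and a log2 fold change of 2.42 ± 0.38 (SE). It was near the lower end of the counts after oil and did not overlap between groups. The authors' peak lists held it in the tamoxifen group alone, as was true of 13 of the 31 Ston2 peaks, 9 of them inside the gene (over all peaks, 11.2%). In the oil list alone were 3, none of them inside the gene (over all peaks, 17.4%).

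In intron 1 the other called peaks lay 41123 and 19868 bp from the TSS. The first, next to the lead peak and within a B4 repeat, held 12.7, 12.2 and 11.2 normalised tags after oil and 40.1, 37.3 and 30.3 after tamoxifen, a log2 fold change of 1.61 ± 0.41 (SE). The other held 8.27, 16.6 and 31.4 after oil and 73.9, 66.3 and 34.9 after tamoxifen, a log2 fold change of 1.60 ± 0.39 (SE). At this peak the groups nearly touched, since tamoxifen replicate 4 was only slightly above oil replicate 4.

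Intron 3 held a cluster of 3 called peaks. The tallest, 50050 bp from the TSS, held 31.4, 35.6 and 52.0 normalised tags after oil and 101, 156 and 130 after tamoxifen, a log2 fold change of 1.70 ± 0.25 (SE). Its neighbour at 51599 bp held 21.5, 9.26 and 13.4 after oil and 40.6, 45.7 and 36.3 after tamoxifen, a log2 fold change of 1.45 ± 0.39 (SE). The third, at 49669 bp and within an ORR1B1 long terminal repeat, held 15.4, 16.6 and 23.3 after oil and 41.6, 55.2 and 41.0 after tamoxifen, a log2 fold change of 1.31 ± 0.35 (SE). None of the 3 overlapped between groups. In intron 4, the called peak 87910 bp from the TSS, which at 748 bp was the widest of the 31, held 31.4, 22.4 and 27.3 after oil and 70.6, 75.8 and 86.6 after tamoxifen, a log2 fold change of 1.54 ± 0.28 (SE).

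**Figure D3:**
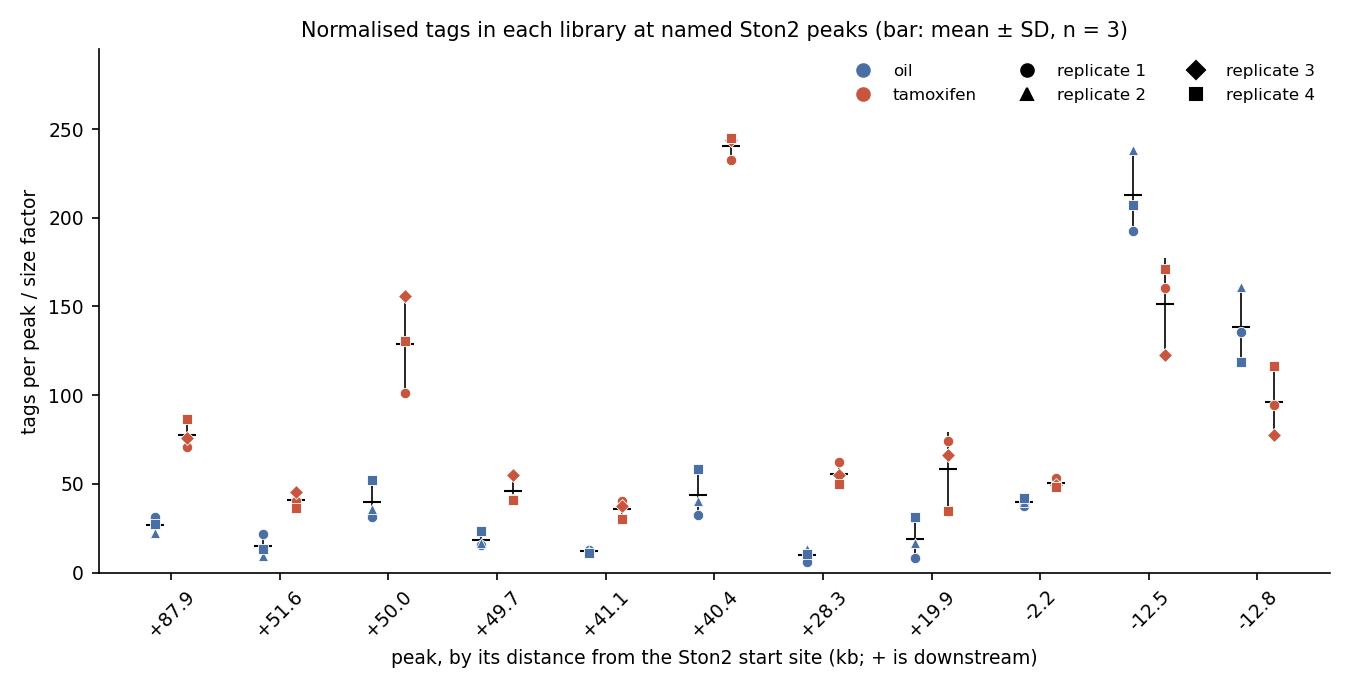
Normalised tags (vertical axis, from 0) in each library at the 8 called Ston2 peaks and at 3 upstream peaks that were not called, ordered along the gene by distance from the TSS in kb (horizontal axis). Blue marks oil and red tamoxifen, the symbol gives the replicate number, and bars are the mean ± SD (n = 3). Red lies above blue at each called peak, most widely at the lead peak, and below blue at the 2 rightmost upstream peaks.

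Of the 14 inner peaks, 6 were not called. Of these, 2 had log2 fold changes as large as those of called peaks with fewer tags behind them, 1.79 ± 0.54 (SE) at 87378 bp and 1.49 ± 0.44 (SE) at 29513 bp, where oil means were 6.50 and 10.8 normalised tags. The peak at 20681 bp had a log2 fold change of 1.28 ± 0.49 (SE), but its tamoxifen replicate 4 lay within the oil range, at 14 against 8.78 to 14.8. The remaining 3 were the peak at 86796 bp (0.68 ± 0.33), the exon 3 peak (0.50 ± 0.36) and the CpG-island peak (0.18 ± 0.31, log2 fold change ± SE). The CpG-island peak, the inner peak closest to the TSS, held 37.5, 50.2 and 26.9 normalised tags after oil and 44.5, 36.8 and 48.0 after tamoxifen. Its groups overlapped throughout, in contrast to the lead peak, which also contains annotated start sites.

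The peak nearest the TSS, 2229 bp upstream of it and within a B2 repeat, held 37.5, 40.0 and 42.1 normalised tags after oil and 53.2, 49.6 and 48.4 after tamoxifen. The groups did not overlap, but the means of 39.9 ± 2.30 and 50.4 ± 2.47 (SD, n = 3 each) were close, and the log2 fold change was 0.33 ± 0.28 (SE). Farther upstream, between 10441 and 14765 bp from the TSS, 9 peaks lay close together. Among them was the peak with the most tags after oil of all 31, with 192, 238 and 207 normalised tags after oil and 160, 123 and 171 after tamoxifen, a log2 fold change of -0.49 ± 0.16 (SE). Next to it, the peak with the lowest log2 fold change of the 31 held 136, 161 and 119 after oil and 94.2, 77.4 and 116 after tamoxifen (-0.51 ± 0.20, SE). At both peaks each tamoxifen library lay below each oil library, least so tamoxifen replicate 4, and neither was called. The peak at 13285 bp was the last of the 3 of this kind, and the log2 fold changes of all 17 upstream peaks ran from -0.51 to 0.73.

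The gene name in the table is that of the nearest TSS, and the far end of Ston2 is nearer to Gtf2a1, which encodes a subunit of the general transcription factor TFIIA. Within the body of Ston2, 4 further peaks in introns 4 and 6 were therefore assigned to Gtf2a1. All 4 were called higher (over all peaks, 0.588%). At chr12:91668545-91668841 normalised tags were 32.0, 30.7 and 38.1 after oil and 145, 144 and 68.0 after tamoxifen, a log2 fold change of 1.82 ± 0.29 (SE). Tamoxifen replicate 4 was here between the oil libraries and the other tamoxifen libraries. At chr12:91684075-91684654 they were 37.5, 41.4 and 26.0 after oil and 75.4, 104 and 95 after tamoxifen (1.40 ± 0.26). The peaks at chr12:91640770-91640978 and chr12:91673199-91673434 had log2 fold changes of 1.27 ± 0.26 and 1.30 ± 0.30 (SE). At each of the 4 the tamoxifen values all lay above the oil values (over all peaks, 11.9%). Counted by position, 12 of the 18 peaks inside Ston2 were called higher, over a stretch of 126 kb of the gene (over all peaks, 0.588%). This set by position was chosen after the data were seen, so nothing is read from its count.

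Outside the body of Ston2, within 500000 bp of its TSS, 41 peaks were assigned to other genes and 0 were called by DESeq2 in either direction, against 0.654% of all peaks (6 had an unadjusted p under 0.05). The count of called peaks was 2 without tamoxifen replicate 4, both assigned to Gtf2a1, and by edgeR's test it was also 2, one assigned to Sel1l and one to Gtf2a1, all of them higher after tamoxifen. The 41 peaks belonged to Gtf2a1 (23), Sel1l (6), Cep128 (6) and Tshr (6). Sel1l lies on the upstream side and encodes an adaptor of the degradation of misfolded proteins in the endoplasmic reticulum. Cep128 encodes a centriole protein, and Tshr is the thyrotropin receptor gene. The median log2 fold change of the 41 was 0.11. All tamoxifen values lay above all oil values at 10 of the 41 (over all peaks, 11.9%) and below them at 2 (over all peaks, 10%). The largest log2 fold changes were 1.46 ± 0.50 (SE) at a peak assigned to Sel1l and 1.19 ± 0.38 (SE) at a peak assigned to Gtf2a1. The promoter peak of Sel1l, 51 bp from its TSS, had a log2 fold change of 0.02 ± 0.08 (SE), and the largest Gtf2a1 promoter peak, 383 bp from that TSS, one of 0.07 ± 0.07 (SE).

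Stonin 2 works with the clathrin coat and its adaptors, and 41 genes of that machinery were listed. Of these, 39 had a peak within 100000 bp, 417 peaks in all, of which 1 was called higher and 0 lower. This was 0.24% of them, against 0.588% of all peaks called higher. The called peak lay in an intron of Numb, which encodes a clathrin adaptor that also restrains Notch signalling, 14729 bp from its TSS. It held 14.3, 16.1 and 15.7 normalised tags after oil and 36.2, 69.6 and 29.3 after tamoxifen, a log2 fold change of 1.54 ± 0.40 (SE; DESeq2 adjusted p = 0.0134). Tamoxifen replicate 3 was the highest here, and all 3 lay above oil. No peak of the list was called without oil replicate 1, 2 or 4 or without tamoxifen replicate 1 or 3 (0). In these fits 49 to 119 of the 417 peaks had no adjusted p and could not be called. Without tamoxifen replicate 4, 3 were called, 2 higher and 1 lower after tamoxifen. With no limit on the fold change, 3 more peaks had an adjusted p under 0.05 by DESeq2, all of them higher after tamoxifen. These were peaks of Itsn1, which encodes the scaffold intersectin 1 (log2 fold change 0.36 ± 0.10, SE), of Epn2, an epsin gene (0.55 ± 0.15), and of Fcho2, whose product bends the membrane as a pit forms (0.88 ± 0.26).

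Of the genes of the list, 36 had a peak within 3000 bp of the TSS. The oil and tamoxifen means of this peak were closer together than either SD in 26 of them. They were farther apart than both SDs in 6, namely Dab2, Hip1, Reps2, Sgip1, Syt2 and Sh3gl1. Of these 6, Reps2 held fewer tags after tamoxifen (252.6 ± 16.5 after oil, 231.6 ± 14.6 after tamoxifen, SD, n = 3 each) and the others more. By DESeq2, 0 of the 36 peaks had an adjusted p under 0.05. How often means lie this far apart was not counted over all peaks, so nothing is read from the 6. Syt2, a synaptotagmin gene, held means of 83.4 ± 4.85 and 100.5 ± 8.43 normalised tags (oil and tamoxifen, SD, n = 3 each). Among the genes of the proteins that bind stonin 2 and of the clathrin coat, the AP-2 subunit gene Ap2m1 held 848 ± 51.7 normalised tags after oil and 841 ± 33.5 after tamoxifen, another subunit gene, Ap2a2, 565 ± 34.4 and 591 ± 8.26, the scaffold gene Eps15 619 ± 17.4 and 627 ± 56.8, Itsn1 782 ± 51.8 and 786 ± 44.7, and the clathrin heavy chain gene Cltc 555 ± 37.6 and 559 ± 24 (SD, n = 3 each). Ston1, the paralogue of Ston2, had 3 peaks, of which 0 were called. None of these was a start-site peak, since the nearest lay 14636 bp from the TSS of Ston1. This nearest peak held 35.5 ± 1.54 and 34.5 ± 1.32 (SD, n = 3 each), and the largest log2 fold change of the Ston1 peaks was 1.02. Over the 417 peaks of the list the median log2 fold change was 0.0014, and the groups did not overlap at 52 peaks in the direction of more tags (over all peaks, 11.9%) and at 48 in the direction of fewer (over all peaks, 10%, or 21.9% in either direction), both of which are near the background.

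**Figure D4:**
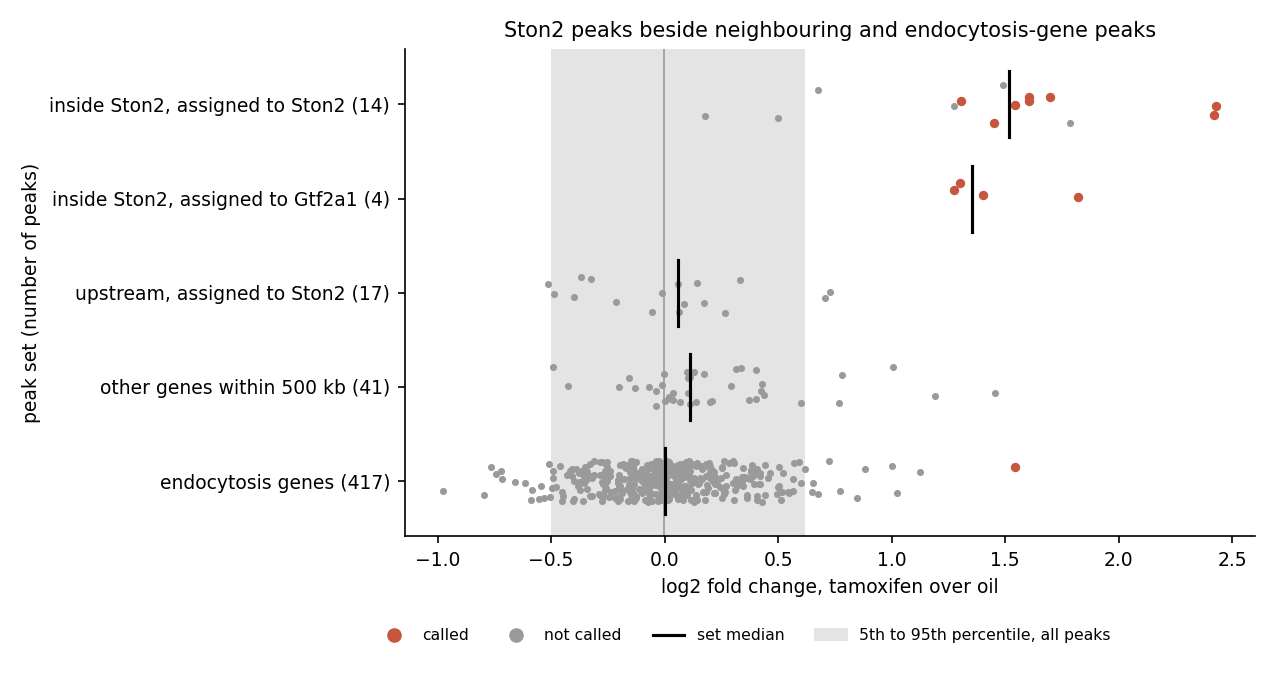
Log2 fold change (tamoxifen over oil, horizontal axis) of every peak in 5 sets (vertical axis, number of peaks in parentheses), with called peaks in red, the set median as a black bar and the 5th to 95th percentile of all peaks, -0.50 to 0.62, as a grey band. Most peaks inside Ston2 lie to the right of the band under either gene name, whereas upstream, neighbouring and endocytosis-gene peaks lie mostly within it.

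Beyond the locus, the peaks whose library profile was most like that of the lead peak were sought among 88702 peaks with a mean of at least 50 normalised tags. Likeness was the root mean square difference over the 6 libraries of log2(normalised tags + 1) less the oil mean. The 5 genes with the closest peak were Srp9 (0.36), Cyp11a1 (0.36), Tapt1 (0.39), Stard3nl (0.44) and 1700012A03Rik (0.46). The Srp9 peak, 40220 bp from the TSS of this gene for a subunit of the signal recognition particle, held 20.4, 34.6 and 26.9 normalised tags after oil and 161, 204 and 112 after tamoxifen. The Cyp11a1 peak lay at the promoter of that gene, whose enzyme begins steroid synthesis, and held 14.3, 29.3 and 27.3 after oil and 128, 211 and 112 after tamoxifen. The Tapt1 peak, 256998 bp from the TSS of that gene, held 27.6, 33.6 and 29.6 after oil and 151, 103 and 171 after tamoxifen. Tamoxifen replicate 4 was the lowest of its group at 4 of these 5 peaks and the highest at the Tapt1 peak. By the same rule of gene name and distance, 6 of 24 Srp9 peaks, 0 of 59 Tiam1 peaks and 11 of 17 Nek6 peaks were called higher, beside 8 of 31 for Ston2 (over all peaks, 0.588%). With no limit on the fold change, 7 Srp9, 8 Tiam1, 11 Nek6 and 8 Ston2 peaks were higher at an adjusted p under 0.05 (over all peaks, 1.22%). The largest log2 fold change of a Tiam1 peak was 0.995, just under the fold limit.

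Tamoxifen replicate 4 was nearer to the oil libraries than the other tamoxifen libraries were over the called peaks in general. Over the 1034 peaks called higher, its median log2 value over the oil mean was 1.02, against 1.31 and 1.56 in tamoxifen replicates 1 and 3. Over the 8 called Ston2 peaks it was 1.49, against 1.57 and 1.80, and at the lead peak 2.50, against 2.42 and 2.49. In units of 1000000 tags, library totals were between 57.4 and 74.7, and the median peak held 45 to 57 tags. Each of 5 blast genes (Kit, Cd34, Myb, Mpo and Spi1) had a start-site peak, and 1 of these, that of Cd34, was called higher. The Cd34 peak held 73.9, 92.6 and 117 normalised tags after oil and 265, 333 and 212 after tamoxifen. At Kit, Myb, Mpo and Spi1 the groups overlapped. Summed normalised tags of the 5 blast genes were 1770 to 1807 after oil and 1828 to 2100 after tamoxifen, without overlap. Of the markers of other cells, 2 of 5 T cell, 3 of 4 B cell, 4 of 4 erythroid, 2 of 4 mature myeloid and 2 of 3 endothelial genes had a start-site peak, and 0 of these were called. Summed normalised tags of the T cell markers were 82.2 to 109 after oil and 88.9 to 104 after tamoxifen, of the B cell markers 134 to 158 and 151 to 191, of the erythroid markers 1042 to 1144 and 923 to 1044, of the mature myeloid markers 47.8 to 50.7 and 50.7 to 70.8, and of the endothelial markers 95.6 to 120 and 128 to 147. The endothelial sums, like those of the blast genes, did not overlap between groups. The mature myeloid sums were apart by less than the rounding of these values. The endothelial difference came from Cdh5, with 74.7 ± 11.4 after oil and 105 ± 11.6 after tamoxifen, whereas Kdr held 36.4 ± 4.27 and 30.1 ± 2.00 (SD, n = 3 each) and was lower in each tamoxifen library, and Pecam1 had no start-site peak. The part of other cells in the Ston2 values was not tested. Loss of the Usp18 allele could not be checked in these peaks, and RNA was not analysed here.

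Motifs were searched on both strands in the central 200 bases of each peak. They were TGTGGT for RUNX factors, AGATAA or else TGATAA for the factors of the GATA family, GAGGAAGT for PU.1, TTGCNNAA for C/EBP, and CAGCTG for an E-box. Others were the interferon regulatory factor motif, searched as GAAANNGAA, and a heat shock element, searched as GAANNTTC. AGGTCA was searched as 1 of the 2 arms of an oestrogen response element, so a match is not a whole element. Further motifs were CRE, searched as TGACGTCA, a CTCF core, searched as AGGGGGC, and AP-1, searched as TGANTCA. The NF-kB consensus is given by its name because its pattern allows alternative bases. RUNX, the family of the AML1 moiety of AE9a, matched in 12 of the 31 Ston2 peaks, 5 inside the gene and 7 upstream, and in 18.7% of all peaks. Among the 8 called peaks it matched in 4 and among the 23 others in 8. GATA matched in 7 of the 31, 2 of them called (23% of all peaks), and the E-box in 5, 2 of them called (13.1%). AGGTCA matched in 3, all of them called (11.2%). The interferon regulatory factor motif matched in 0 of the 8 called peaks and 2 of the others (5.13%), and NF-kB in 0 and 1 (5.03%). AP-1 and CRE matched in none of the 31 (6.61% and 0.573%). Of the 12 called peaks inside the gene under any gene name, NF-kB matched in 1, the intron 4 peak assigned to Gtf2a1 that is printed above. The interferon regulatory factor motif matched in 0 of these 12. In the lead peak the central 200 bases held a GATA match alone. The wider stretch printed above also holds an interferon regulatory factor match and an E-box toward its right end. The stretch of the second peak with a fold over 5 holds RUNX, GATA and E-box matches toward its left end. That of the tallest intron 3 peak holds 3 AGGTCA matches and 1 RUNX match. These are matches of letters and not mapped binding sites.

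The called peaks had a median GC content of 51.5% in their central 200 bases, the Ston2 peaks that were not called 50.5%, and all peaks 50.5%. Their median widths were 249, 254 and 250 bp. The table placed 2 of the 8 called and 6 of the 23 other Ston2 peaks in repeats, and 22.5% of all peaks.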

How the data were processed

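The data are ATAC-seq tags per peak in 6 libraries, 3 from the oil and 3 from the tamoxifen group. Per the file headers and the study's methods, the authors aligned reads to mm10 (Bowtie2), called peaks for each group with HOMER, merged both lists and counted tags per peak. The deposited table holds these tags as estimated counts in steps of 0.5, limited to 3 tags per position and not normalised. Peaks were called on the libraries that were then compared, so a region open in neither group is missing, and the limit per position caps the tallest peaks. Tool versions are not given in the sources used here.

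Tags were rounded to whole numbers, and tamoxifen was compared with oil over all 175929 peaks by the Wald test of DESeq2 1.42.0 (R 4.3.3) with Benjamini-Hochberg adjustment and no covariate. A call required an adjusted p under 0.05 together with a fold change above 2, the limits of the study's methods. Normalised tags are tags divided by the DESeq2 size factor. The fits were tested on simulated data. Members and gene lists were chosen with earlier results of these data known. Every called Ston2 peak, the peak nearest the TSS, the peak with the most tags after oil and the peak with the lowest log2 fold change are given in every library. Neighbouring genes are those within 500000 bp. For the endocytosis list, called peaks, the start-site peaks of Ap2m1, Eps15, Itsn1 and Cltc, and the Ston1 peak nearest its TSS are named. Other peaks are named because a sentence singles them out, and these were chosen after their values were seen. Alternatives were other size factors (edgeR 4.0.16 TMM, total tags), the edgeR quasi-likelihood test, filters, thresholds, the distance limit, each library left out, and a replicate block. Sequences and start sites come from the GRCm38 reference, RefSeq and GENCODE M21, and on 0 of 21 chromosomes did a peak end beyond the reference. Library totals of 57.4 to 74.7 (in units of 1000000 tags) left a peak of 10 tags with a counting error that is a large part of its value.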

Additional observations from a re-analysis of the deposited data

How the results depend on the processing

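The lead peak kept its direction under every alternative run, and its log2 fold change was 2.27 to 2.69 with 1 library left out. The peak nearest the TSS was 0.29 to 0.37 and the summed log2 ratio of the 31 peaks 0.35 to 0.45. The number of Ston2 peaks called was more dependent on the libraries. It was 8 with all libraries, 3 without tamoxifen replicate 1, 4 without tamoxifen replicate 3 or oil replicate 2, 5 without oil replicate 1 or 4, and 8 without tamoxifen replicate 4. The 8 peaks had the same sign in each of these fits. The number of calls over all peaks also moved, from 1150 to between 369 without tamoxifen replicate 3 and 2603 without tamoxifen replicate 4. Of the 8 peaks, 3 had no adjusted p without tamoxifen replicate 1 and 2 had none without tamoxifen replicate 3, as DESeq2 leaves out peaks with low counts, so these could not be called. The cause of the other changes was not tested. By edgeR's quasi-likelihood test 9 Ston2 peaks were called, 7 of them among the 8, without the peak at 19868 bp. With size factors from all mapped tags, or a fit of distal peaks only, 10 were called, and the 8 were among them.

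The labels do not say whether the shared replicate numbers 1 and 4 pair the libraries. For these numbers, deviations from the group means correlated at -0.07 and 0.09 over 88730 peaks. Counting error is part of such deviations, so these values do not settle whether the libraries are paired. With a replicate block on these 4 libraries, 1 Ston2 peak was called, the lead peak (log2 fold change 2.41), 0 neighbouring peaks and 0 endocytosis peaks. In that fit 15 of the 31 Ston2 peaks, 4 of the 8 called ones among them, 14 of the 45 neighbouring and 131 of the 417 endocytosis peaks had no adjusted p and could not be called.

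Within 50000 bp of the TSS 5 Ston2 peaks were called, and the summed log2 ratio was 0.28. Over all peaks inside the gene under any gene name, an alternative chosen after seeing the data, the summed log2 ratio was 1.53. The count of 1 called endocytosis peak was 0 to 3 with 1 library left out. It was 3 without tamoxifen replicate 4 (2 higher and 1 lower) and 0 without any other library. In the fits with 0 calls, 49 to 119 of the 417 endocytosis peaks had no adjusted p and could not be called. By edgeR's test it was 3, and with no limit on the fold change 4. Of the 45 neighbouring peaks, the 4 called were those inside Ston2 assigned to Gtf2a1. This count was 3 to 6 with 1 library left out, and the 6 without tamoxifen replicate 4, like the 6 by edgeR's test, were these 4 and 2 of the 41 outside the gene. At peaks with around 10 tags per library after oil, depth limits the precision of the fold change.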
